A study of Saccharomyces cerevisiae with 116 samples.

Results

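Line Hh77 of Saccharomyces cerevisiae, labelled Trisomy XII, was set against the 5 lines of the same experiment labelled euploid, Hh1, Hh2, Hh3, Hh5 and Hh9. Hh77 gave 3 of the 116 libraries of the series, 1 from each of 3 colonies. The euploid lines gave 15, again from 3 colonies each. All 6 lines descend from 1 heterozygous diploid ancestor, the cross of NCYC 3631, a Matalpha derivative of the oak strain YPS606, with NCYC3596, a Mata derivative of DBPVG1106. All carry the genotype ho, ura3. The Hh ancestor itself (3 libraries) and 9 other aneuploid Hh lines (27) are used only where named. They are mutation-accumulation lines, each taken through a single colony every 48 h for 100 transfers on solid YPD, a rich glucose medium, which the labels put at 2108 generations. Such bottlenecks let mutations build up with little selection. RNA came from YPD cultures at 30 °C in log phase, after 24 h of growth and 6 h more following dilution. Hh77 is 1 line, so any other mutation it carries cannot be told apart from its extra chromosome. Genes of chromosome XII were those whose identifier starts with YLL (left arm) or YLR (right arm), 588 of the 7126 features counted. Of these, 499 (60 YLL and 439 YLR) passed the filter on low counts, as did 5468 genes of the other chromosomes.

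A cell that gains a copy of a chromosome holds an extra template for each gene on it, and in budding yeast the mRNA of most such genes scales with the number of copies. Some genes are held closer to the diploid level, or driven above it, by regulation of their own, and genes on the other chromosomes can respond in turn. Chromosome XII carries the ribosomal RNA array, a set of ribosomal protein and ribosome assembly genes, and regulators such as Hap1, Leu3, Sfp1 and Ifh1.

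Hh77 libraries held 8448253 to 11271114 reads in genes and the euploid ones 4675391 to 10366790. Reads that mapped to more than 1 place made up 8.06 to 9.75% in Hh77, against 7.92 to 40.0% in the euploid libraries, the highest in Hh3 colony 3. Over genes outside chromosome XII the first principal component held 47.4% of the variance. The 3 Hh77 colonies scored 31.2, 38.2 and 17.5 on it. Colonies 1 and 2 of Hh1 (28.3 and 42.8) and colony 1 of Hh9 (35.1) scored in or above that range, while the other 12 euploid colonies scored from -38.5 to -0.443. What sets those 3 euploid colonies apart is not in the labels and was not tested, and it touches every result outside chromosome XII. URA3 had at most 1 read in Hh77 and at most 2 in the euploid colonies, which fits the shared genotype. HO, also named in the genotype, stood at 10.8 to 23.1 CPM (counts scaled by library size) in Hh77 and 5.75 to 15.4 CPM in the euploid colonies. Mating genes, planned as a check because diploid cells should keep them low, were read too. In Hh77 they ran from 1.00 to 2.48 CPM for MF(ALPHA)1 to 52.9 to 71.9 CPM for STE6, which stood at 51.1 to 105 CPM in the euploid colonies. Why HO and these genes were read was not tested. A library averages over a culture, so more cells expressing a gene and more RNA per cell cannot be told apart.

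Chromosome XII as a whole was expressed at close to 1.5 times the euploid level in Hh77. The median log2 ratio of its 499 genes to the mean of the euploid lines was 0.56 ± 0.06 (SD, n = 3 colonies), a ratio of 1.48, where 3 copies in place of 2 would give 0.58. Single Hh77 colonies lay between 0.49 and 0.60, against -0.05 to 0.03 in the 15 euploid colonies, so the groups were far apart. On every other chromosome the Hh77 mean of this measure lay between -0.05 and 0.04. An exact two-sided permutation test over the 6 lines gave p = 0.167, the smallest value that 1 line against 5 allows. The rise ran along the whole chromosome. In 10 parts of 47 or 48 genes in map order the Hh77 means lay between 0.44 and 0.71, and single euploid colonies between -0.33 and 0.29. The left arm averaged 0.46 ± 0.11 and the right arm 0.58 ± 0.06 in Hh77 (SD, n = 3). By expression level, the lowest-expressed genes averaged 0.63 ± 0.04, the middle ones 0.52 ± 0.11 and the highest 0.49 ± 0.08, with the genes split into 3 equal sets (SD, n = 3). The difference between these sets was not tested.

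**Figure D1:**
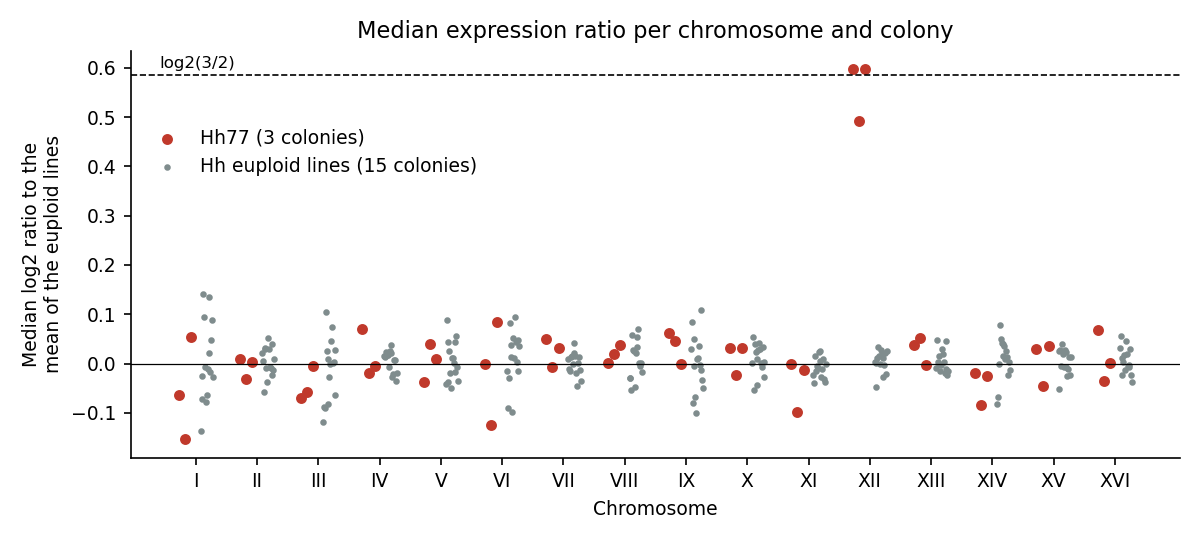
Median over each chromosome's genes of the log2 ratio to the mean of the euploid lines, 1 point per colony, Hh77 (red) left of the euploid lines (grey); the solid line is 0 and the dashed line log2(3/2). The Hh77 points on chromosome XII lie between 0.49 and 0.60, and all other points lie near 0.

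Gene by gene, 246 of 499 chromosome XII genes (49.3%) rose in Hh77 and 1 (0.200%), AHP1, fell, 49.5% in all. A gene was called where edgeR's quasi-likelihood test gave a Benjamini-Hochberg adjusted p under 0.05 over all genes and the Hh77 mean lay beyond each of the 5 euploid line means. The p-values measure the spread between colonies of a line, and the second condition sets Hh77 against the lines. At an unadjusted p under 0.05 stood 318 genes (63.7%), and the fitted log2 fold change was positive for 430. For 120 genes (24.0%) all 3 Hh77 colonies lay above all 15 euploid colonies, 119 of them called (23.8%), and for 0 genes (0.00%) all lay below. Leaving out Hh77 colony 1 left 120 calls, Hh77 colony 2 left 132 and line Hh5 left 152. In each of the 23 fits that left out 1 library or 1 line, 76 genes were called, all higher.

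**Figure D2:**
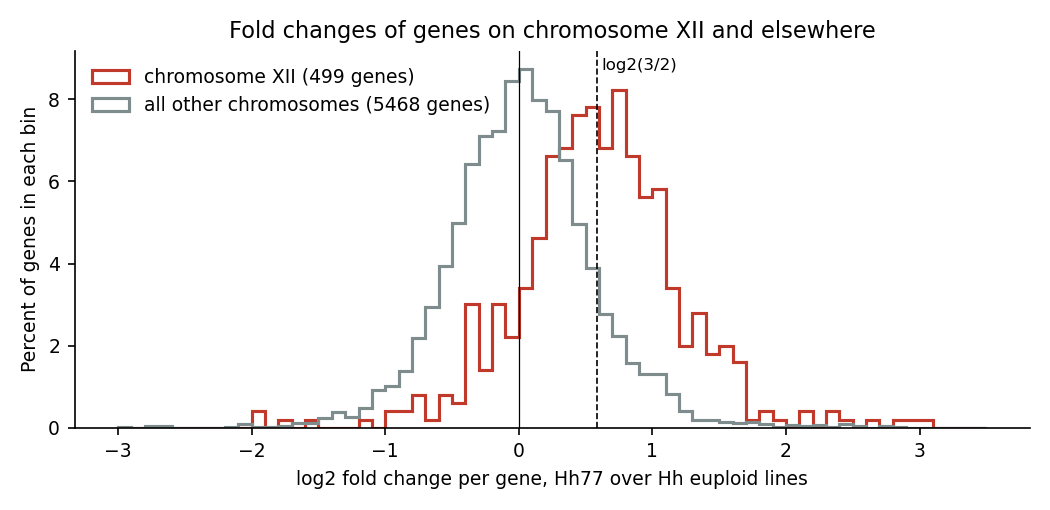
Distribution of the fitted log2 fold change, Hh77 over the euploid lines, for 499 chromosome XII genes (red) and 5468 genes of the other chromosomes (grey), as the percent of genes in each bin. The chromosome XII genes centre near log2(3/2), marked by the dashed line, with 430 of 499 above 0, and the other genes centre near 0.

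Tested against the 3:2 proportion instead of against no change, 33 genes (6.61%) stood above it and 18 (3.61%) below by the same adjusted p and line condition. At an unadjusted p under 0.05 stood 172 (34.5%). These calls depended on single colonies. The count of 51 was 3 without Hh77 colony 1, 1 without Hh77 colony 2, 119 without Hh1 colony 2 and 110 without Hh9 colony 1. It was 5 to 34 without any 1 colony of Hh2, Hh3 or Hh5 or colony 2 or 3 of Hh9. Without a whole line it was 165 (Hh1), 77 (Hh9) or 3 (Hh2, Hh3 or Hh5). PUN1 was the gene called in all 23 fits. The genes with the smallest p on either side are described next, 8 each, and a distance from proportion is on the log2 scale, and a level is in CPM, counts scaled by library size.

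PUN1, a plasma membrane protein tied to cell wall integrity, stood at 942, 1882 and 897 CPM in the Hh77 colonies, against 62.8 (lowest), 127 (median) and 420.3 CPM (highest) in the euploid colonies. All Hh77 colonies were above all euploid colonies. The log2 fold change was 3.06 ± 0.33 (edgeR adjusted p = 0.000162), and the distance from proportion 2.47 ± 0.33 (edgeR adjusted p = 0.000824). OSW2, an outer spore wall gene, stood at 20.5, 52.4 and 23.2 CPM in Hh77, against 1.71 to 12.7 CPM (median 5.06) in euploid colonies, with no overlap even at this low level. It lay 2.07 ± 0.33 (edgeR adjusted p = 0.00334) above proportion. VPS36, a subunit of the ESCRT-II sorting complex, stood at 168, 252 and 165 CPM in Hh77, against 51.7 to 91.4 CPM (median 70.2) in euploid colonies, again with no overlap. It lay 0.88 ± 0.16 (edgeR adjusted p = 0.00869) above proportion. VPS36 is the neighbour of PUN1 (R64 chromosome XII, 955010 to 956710 and 953353 to 954144). OSW2 and VPS36 were called above proportion in 17 of the 18 fits that left out 1 library and in all 5 that left out a line.

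SPC3 and SND2, the next neighbours, both act at the endoplasmic reticulum. SPC3, a subunit of the signal peptidase (267169 to 267723), stood at 179, 173 and 147 CPM in Hh77, against 39.3 to 113 CPM (median 53.9) in euploid colonies. It lay 0.92 ± 0.19 (edgeR adjusted p = 0.0207) above proportion. SND2, which targets proteins there without the signal recognition particle (266373 to 266918), stood at 76.4, 82.1 and 67.0 CPM in Hh77, against 12.5 to 42.4 CPM (median 23.4) in euploid colonies. It lay 1.02 ± 0.23 (edgeR adjusted p = 0.0319) above proportion. Neither overlapped between the groups. NFG1, a negative regulator of filamentous growth (229966 to 230451), and its neighbour AFB1, a gene of alpha cells (228908 to 229582), were low in every library. NFG1 stood at 14.2, 20.5 and 13.1 CPM in Hh77, against 0.455 to 10.6 CPM (median 1.29) in euploid colonies, and lay 2.40 ± 0.52 (edgeR adjusted p = 0.0266) above proportion. AFB1 stood at 4.76, 12.9 and 4.59 CPM in Hh77, against 0 to 3.65 CPM (median 0.656) in euploid colonies, and lay 2.30 ± 0.59 (edgeR adjusted p = 0.0408) above proportion. Both were without overlap, and Hh1 colony 2 was the highest euploid colony for each. SEI1, the yeast seipin of lipid droplets, stood at 34.3, 34.8 and 26.8 CPM in Hh77, against 9.10 to 17.9 CPM (median 12.3) in euploid colonies, without overlap, and lay 0.75 ± 0.17 (edgeR adjusted p = 0.0319) above proportion. SPC3, SND2, NFG1, AFB1 and SEI1 were each called above proportion in 2 of the 5 fits that left out a line. No annotated R64 gene overlaps any of the 8 genes above proportion. The strand setting of the counting was not stated.

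Genes below proportion mostly stood inside the euploid range. MAS1, a subunit of the mitochondrial processing protease, stood at 150.2, 135 and 159 CPM in the Hh77 colonies, against 101 (lowest), 169 (median) and 280.0 CPM (highest) in the euploid colonies. It lay -0.82 ± 0.17 (edgeR adjusted p = 0.0211) from proportion. AAT2, the cytosolic aspartate aminotransferase, stood at 568, 461 and 566 CPM in Hh77, against 371 to 832 CPM (median 620.4) in euploid colonies, a distance of -0.77 ± 0.18 (edgeR adjusted p = 0.0321). These overlapped the euploid colonies, as did all 8. Each of the 8 was called below proportion in 2 of the 5 fits without 1 line. In fits without 1 library the call held in 6 (GIS3) to 16 (MAS1) of 18. Over the ancestor the log2 fold changes of all but AHP1 were positive, from 0.10 (ECM22) to 0.53 (MAS1), and none was called. The fit against the ancestor called 0 genes of the whole chromosome. IFH1, the coactivator of ribosomal protein genes, stood at 47.1, 47.8 and 51.5 CPM in Hh77, against 33.3 to 66.7 CPM (median 51.3) in euploid colonies, a distance of -0.63 ± 0.16 (edgeR adjusted p = 0.0408). ECM22, a regulator of sterol genes, stood at 88.7, 76.2 and 111 CPM in Hh77, against 78.2 to 159 CPM (median 100.0) in euploid colonies, a distance of -0.73 ± 0.19 (edgeR adjusted p = 0.0408). AHP1, a thiol peroxidase, was called under the euploid level as well, a call that held in 3 of 18 fits without 1 library and 2 of 5 without 1 line. It stood at 53.0, 88.0 and 115 CPM in the Hh77 colonies, against 50.0 (lowest), 305 (median) and 979.7 CPM (highest) in the euploid colonies. Colonies 1 and 2 of Hh1 stood at or below the highest Hh77 colony, and the log2 fold change was -1.91 ± 0.59 (edgeR adjusted p = 0.0459). In the ancestor it stood at 79.3 to 129 CPM, and the log2 fold change of Hh77 over the ancestor was -0.26 (edgeR adjusted p = 0.679). MRPL4, a mitochondrial ribosomal protein, stood at 28.6, 17.2 and 47.1 CPM in Hh77, against 14.2 to 99.9 CPM (median 64.1) in euploid colonies. TPO1, a polyamine exporter, stood at 119, 102 and 177 CPM in Hh77, against 102 to 245 CPM (median 169.5) in euploid colonies. GIS3, of unknown function, stood at 60.6, 78.9 and 91.5 CPM in Hh77, against 47.6 to 187 CPM (median 113) in euploid colonies. The distances of MRPL4, TPO1 and GIS3 from proportion were -1.46 ± 0.37 (edgeR adjusted p = 0.0408), -0.94 ± 0.24 (edgeR adjusted p = 0.0408) and -1.08 ± 0.29 (edgeR adjusted p = 0.0408).

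**Figure D3:**
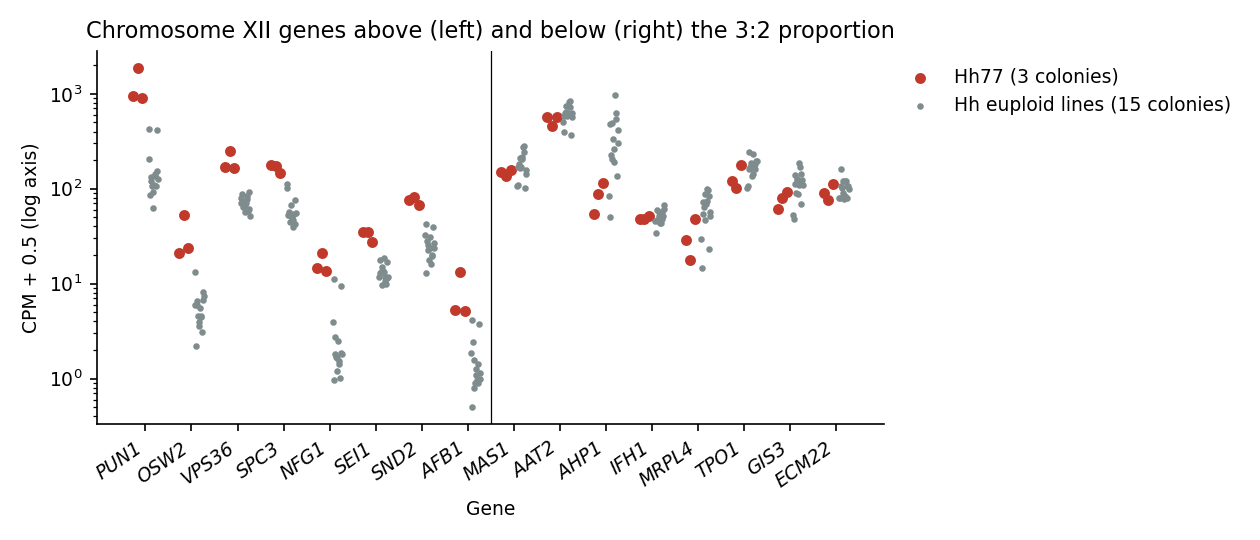
Counts scaled by library size (CPM) of the 16 chromosome XII genes with the smallest p against the 3:2 proportion, plotted as CPM + 0.5 on a log axis, 1 point per colony, Hh77 (red) left of the euploid lines (grey). The 8 genes on the left stand above the proportion and do not overlap between the groups; the 8 on the right stand below it and overlap.

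Of 17 ribosomal protein genes on chromosome XII, 16 rose, where 49.3% of the chromosome's genes did. Their median log2 fold change was 1.51, against 0.59 over all 499 genes, and 7 stood above proportion, where 6.61% of the chromosome's genes did. RPS28B, of the small subunit, stood at 145, 147 and 109 CPM in the Hh77 colonies, against 13.7 (lowest), 36.3 (median) and 90.2 CPM (highest) in the euploid colonies. The log2 fold change was 1.84 ± 0.32 (edgeR adjusted p = 0.00294). RPL38, of the large subunit, stood at 819, 934 and 629 CPM in Hh77, against 112 to 505 CPM (median 277) in euploid colonies, a log2 fold change of 1.51 ± 0.26 (edgeR adjusted p = 0.00294). RPS25B stood at 200.0, 342 and 186 CPM in Hh77, against 68.2 to 151 CPM (median 94.7) in euploid colonies, a log2 fold change of 1.25 ± 0.20 (edgeR adjusted p = 0.00162). In none of the 3 did the groups overlap. RPP0, the base of the ribosomal stalk, was the one not called, with a log2 fold change of 0.71 ± 0.30 and an edgeR adjusted p of 0.114. Many ribosomal protein genes have a near-identical copy, and reads that fit both are not counted, so these levels are uncertain to that extent.

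Of 117 ribosomal protein genes on other chromosomes 50 rose, where 5.52% of all genes outside chromosome XII rose. That count of 50 was 0 without Hh77 colony 2. Each chromosome XII copy was also set against its own paralogue within a library. In 13 pairs 1 copy lies on chromosome XII and the other does not. The log2 ratio of the 2 counts, less the euploid mean, had a median over pairs of 0.54 ± 0.07 in Hh77 (SD, n = 3 colonies; 0.46 to 0.60). In the euploid colonies it was 0.03 ± 0.11 (SD, n = 15; -0.09 to 0.27). It was higher in Hh77 for 13 of 13 pairs, and in 5 pairs the groups did not overlap. The ratios are not corrected for gene length, so only their difference between the groups is read. RPS1A over RPS1B was 0.66 ± 0.09 in Hh77 (SD, n = 3 colonies) and 0.09 ± 0.05 in the euploid lines (SD, n = 5 lines). RPL6B over RPL6A was -0.51 ± 0.14 in Hh77 and -1.01 ± 0.04 in the euploid lines. RPL8B over RPL8A was 1.65 ± 0.16 in Hh77 and 0.76 ± 0.15 in the euploid lines. RPL15A with RPL15B and RPL31B with RPL31A were the remaining pairs without overlap. The median shift was thus close to log2(3/2), while the log2 fold changes of the 17 ribosomal protein genes of chromosome XII had a median of 1.51.

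**Figure D4:**
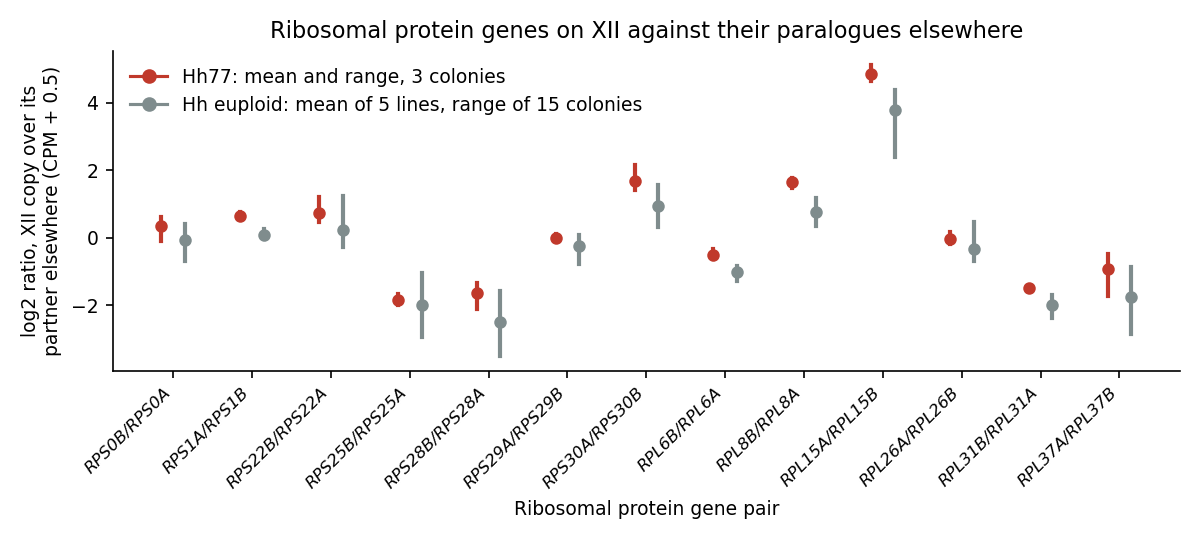
log2 ratio of the ribosomal protein gene on chromosome XII to its paralogue on another chromosome, for 13 pairs; points are means and bars the range, Hh77 (red, 3 colonies) left of the euploid lines (grey, mean of 5 lines, range of 15 colonies). The Hh77 mean is the higher in 13 of 13 pairs, and in 5 pairs the ranges do not overlap.

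Ribosome assembly genes on the chromosome gave 12 of 15 higher (49.3% over the chromosome) and 0 lower, with a median log2 fold change of 0.79. Above proportion stood 2 of them (6.61% over the chromosome). EMG1, a methyltransferase of the small subunit, stood at 51.3, 58.3 and 48.1 CPM in Hh77, against 15.2 to 33.4 CPM (median 24.5) in euploid colonies. The log2 fold change was 1.09 ± 0.14 (edgeR adjusted p = 0.000533). RLP24, a large-subunit assembly factor, stood at 159.7, 158 and 135 CPM in Hh77, against 38.8 to 90.9 CPM (median 66.7) in euploid colonies, a log2 fold change of 1.14 ± 0.16 (edgeR adjusted p = 0.000791). NOC3, which acts in ribosome export and in DNA replication, stood at 68.8, 49.9 and 56.1 CPM in Hh77, against 24.9 to 49.9 CPM (median 34.9) in euploid colonies, a log2 fold change of 0.73 ± 0.13 (edgeR adjusted p = 0.00356). None of these 3 overlapped between the groups, NOC3 by a narrow margin.

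Of 29 regulators encoded on chromosome XII, 9 rose, where 49.3% of the chromosome's genes did, and 0 fell. Below proportion stood 4 (SFP1, RSC2, ECM22 and IFH1), where 3.61% of the chromosome's genes did. The median log2 fold change was 0.26, against 0.59 over the whole chromosome. CBF5, the pseudouridine synthase of box H/ACA particles, stood at 252, 268 and 271 CPM in Hh77, against 64.1 to 177 CPM (median 130.0) in euploid colonies. CDC42, the polarity GTPase, stood at 185, 302 and 196 CPM in Hh77, against 90.3 to 169 CPM (median 116) in euploid colonies. SIC1, the inhibitor of S-phase cyclin kinase, stood at 148, 178 and 156 CPM in Hh77, against 98.5 to 129.9 CPM (median 113) in euploid colonies. In these 3 the groups did not overlap, and the log2 fold changes were 1.06 ± 0.19 (edgeR adjusted p = 0.00307), 0.98 ± 0.18 (edgeR adjusted p = 0.00326) and 0.51 ± 0.11 (edgeR adjusted p = 0.00915). TOS4, a gene of the G1 to S transition, stood at 200.4, 149.6 and 187 CPM in Hh77, against 22.1 to 111 CPM (median 83.0) in euploid colonies. CDC45, a replication initiation factor, stood at 79.2, 64.2 and 72.3 CPM in Hh77, against 11.3 to 55.9 CPM (median 39.8) in euploid colonies. Neither overlapped.

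Several well-known regulators were not called against the euploid lines, SFP1 among them although it was called below proportion. SFP1, an activator of ribosomal protein and assembly genes, stood at 116, 124 and 165 CPM in Hh77, against 101 to 239 CPM (median 162) in euploid colonies. HAP1, the haem-responsive activator, stood at 151, 156 and 265 CPM in Hh77, against 107 to 314 CPM (median 242) in euploid colonies. LEU3, of branched-chain amino acid synthesis, stood at 114, 79.2 and 111 CPM in Hh77, against 62.5 to 92.3 CPM (median 78.6) in euploid colonies. All 3 overlapped the euploid colonies, with log2 fold changes of -0.28 ± 0.23, -0.29 ± 0.28 and 0.36 ± 0.12. HOG1, the osmotic stress kinase, stood at 266, 288 and 321 CPM in Hh77, against 135 to 427 CPM (median 276) in euploid colonies. CDC25, the exchange factor of Ras, stood at 301, 206 and 337 CPM in Hh77, against 169 to 328 CPM (median 243) in euploid colonies. These overlapped too.

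Of 29 metabolic enzymes encoded on the chromosome, 6 rose, where 49.3% of the chromosome's genes did, and 0 fell. Above proportion stood 2 and below it 3, beside 6.61% and 3.61% over the chromosome. The 4 purine and one-carbon genes there all rose. ADE13, adenylosuccinate lyase, stood at 933, 647 and 582 CPM in Hh77, against 126 to 517 CPM (median 228) in euploid colonies, without overlap and with a log2 fold change of 1.60 ± 0.28 (edgeR adjusted p = 0.00294). IMD3, an IMP dehydrogenase, stood at 205, 181 and 204 CPM in Hh77, against 26.2 to 151 CPM (median 79.9) in euploid colonies, without overlap and with a log2 fold change of 1.38 ± 0.34 (edgeR adjusted p = 0.0193). SHM2, serine hydroxymethyltransferase, stood at 666, 209 and 521 CPM in Hh77, against 96.2 to 411 CPM (median 179) in euploid colonies, so that 4 euploid colonies reached the Hh77 range. ADE16, which closes the purine ring, rose by a log2 fold change of 0.43 ± 0.13 (edgeR adjusted p = 0.0465). In sterol synthesis ERG27, the ketoreductase, stood at 296, 370.3 and 239.6 CPM in Hh77, against 82.3 to 202 CPM (median 109.8) in euploid colonies, without overlap and with a log2 fold change of 1.36 ± 0.19 (edgeR adjusted p = 0.000839). HMG2, an HMG-CoA reductase, stood at 149.9, 123 and 170.1 CPM in Hh77, against 113 to 239.9 CPM (median 154) in euploid colonies, and was called below proportion.

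Of 7 sulfur genes on the chromosome 1 rose, where 49.3% of the chromosome's genes did. It was JLP1, a sulfonate dioxygenase, at 25.4, 40.8 and 28.4 CPM in Hh77, against 9.11 to 37.3 CPM (median 11.8) in euploid colonies, with a log2 fold change of 1.18 ± 0.31 (edgeR adjusted p = 0.0264). SAM1, an S-adenosylmethionine synthetase, stood at 33.1, 72.0 and 100.4 CPM in Hh77, against 30.2 to 710.0 CPM (median 238) in euploid colonies. MET17, which fixes sulfide into homocysteine, stood at 182, 223 and 238 CPM in Hh77, against 126 to 2563 CPM (median 396) in euploid colonies. Both overlapped the euploid colonies and neither was called, with log2 fold changes of -1.93 ± 0.84 (edgeR adjusted p = 0.121) and -1.55 ± 0.70 (edgeR adjusted p = 0.135). In the cell wall list 5 of 6 rose, read against the same 49.3%. YPS1, a surface protease, stood at 541, 574 and 643 CPM in Hh77, against 94.4 to 387 CPM (median 219) in euploid colonies, without overlap. CCW12, an abundant wall mannoprotein, stood at 6831, 13510.5 and 9185 CPM in Hh77, against 1405 to 6853 CPM (median 3242) in euploid colonies, with only Hh1 colony 2 in the Hh77 range. ECI1, a peroxisomal enoyl-CoA isomerase, stood at 852, 516 and 931 CPM in Hh77, against 53.3 to 693 CPM (median 148) in euploid colonies, with only Hh1 colony 1 in the Hh77 range. It lay 1.59 ± 0.42 (edgeR adjusted p = 0.0408) above proportion. COX8, a subunit of cytochrome c oxidase, stood at 2109, 2941 and 1553 CPM in Hh77, against 817 to 1424 CPM (median 1067) in euploid colonies. COX12, another, stood at 2284, 3221 and 1706 CPM in Hh77, against 909 to 1669.5 CPM (median 1143) in euploid colonies. Neither overlapped. The 4 chaperone genes there were not called, where 49.5% of the chromosome's genes were called either way. Their log2 fold changes were -0.48 ± 0.34 for HSP60, -0.71 ± 0.56 for HSP104, -0.31 ± 0.53 for SSA2 and 0.11 ± 0.29 for CPR6, with unadjusted p from edgeR of 0.183, 0.22, 0.567 and 0.717.

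Outside chromosome XII, 302 of 5468 genes (5.52%) rose and 170 (3.11%) fell, 8.63% in all, with 1723 (31.5%) at an unadjusted p under 0.05. Scaled on all genes instead, 190 were higher and 207 lower. These counts rest on a few colonies. The total of 472 became 34 without Hh77 colony 1, 54 without Hh77 colony 2, 1092 without Hh1 colony 2 and 921 without Hh9 colony 1. It was 226 to 310 without any 1 of Hh2 colonies 2 and 3, Hh3 colonies 1 and 3, the colonies of Hh5, and Hh9 colonies 2 and 3. Without a whole line it was 1550 (Hh1), 83 (Hh2), 160 (Hh3) or 46 (Hh5). Hh1 colony 2 reached the Hh77 range in 334 of the 472 genes, Hh1 colony 1 in 208 and Hh9 colony 1 in 166, against 2 to 32 for each of the other 12 euploid colonies. All Hh77 colonies lay above all euploid colonies in 58 of the 5468 genes (1.06%) and below them in 39 (0.713%). Of the called genes 67 (1.23% of all) were of this kind, and 14 were called in each of the 23 fits.

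Among called genes averaging at least 10 CPM, the 10 with the largest rises included 4 whose high euploid colonies were the same, colonies 1 and 2 of Hh1 and colony 1 of Hh9. ADH2, the glucose-repressed alcohol dehydrogenase, stood at 5144, 3583 and 5439 CPM in the Hh77 colonies, against 59.3 (lowest), 473 (median) and 8814 CPM (highest) in the euploid colonies. The log2 fold change was 2.46 ± 0.71 (edgeR adjusted p = 0.0376). In the 3 colonies of the Hh ancestor, scaled together with the others, it stood at 7014 to 9699 CPM. ATO3, a putative ammonium exporter, stood at 291, 151 and 374 CPM in Hh77, against 2.51 to 631 CPM (median 11.4) in euploid colonies, and at 379 to 589 CPM in the ancestor. SPS19, a peroxisomal dienoyl-CoA reductase, stood at 184, 101 and 137 CPM in Hh77, against 1.25 to 253 CPM (median 8.96) in euploid colonies, and at 217 to 229 CPM in the ancestor. IME1, the master regulator of meiosis, stood at 79.4, 147 and 45.7 CPM in Hh77, against 2.35 to 316 CPM (median 3.57) in euploid colonies, and at 105 to 252 CPM in the ancestor. Their log2 fold changes over the euploid lines were 2.82 ± 0.81 (edgeR adjusted p = 0.037), 2.75 ± 0.68 (edgeR adjusted p = 0.0198) and 2.72 ± 0.84 (edgeR adjusted p = 0.0457). Against the ancestor the log2 fold changes of ADH2, ATO3, SPS19, IME1 and ARO9, an aromatic aminotransferase, were -0.83, -0.80, -0.70, -0.81 and -0.35. None was called there, with edgeR adjusted p from 0.147 to 0.590, in a fit that called 1 gene outside chromosome XII in all. The direction of these 5 thus depends on which euploid cells Hh77 is set against. FLO11, the flocculin of filamentous growth, stood at 149, 576 and 104 CPM in Hh77, against 22 to 576 CPM (median 45.7) in euploid colonies. PRM5, a membrane protein induced by pheromone, stood at 18.3, 40.2 and 26.8 CPM in Hh77, against 2.73 to 24.9 CPM (median 4.92) in euploid colonies. YPR145C-A, IRC18 and CPP3 made up the 10, with log2 fold changes of 2.53, 2.15 and 1.83.

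Among the 10 largest falls, HSP30 and YNL134C stood apart from every euploid colony. HSP30, a stress protein of the plasma membrane, stood at 166, 316 and 197 CPM in the Hh77 colonies, against 344 (lowest), 1172 (median) and 3071 CPM (highest) in the euploid colonies. The log2 fold change was -2.64 ± 0.54 (edgeR adjusted p = 0.00767), and the ancestor stood at 710.4 to 1234 CPM, above Hh77 as well. YNL134C, an aldehyde reductase gene, stood at 261, 276 and 242 CPM in Hh77, against 363 to 2934 CPM (median 1086) in euploid colonies, a log2 fold change of -2.04 ± 0.42 (edgeR adjusted p = 0.00805). The ancestor stood at 249 to 396 CPM, which overlaps Hh77. MUP1, the high-affinity methionine permease, stood at 94.4, 109 and 191 CPM in Hh77, against 74.0 to 1885 CPM (median 799) in euploid colonies, a log2 fold change of -2.67 ± 0.84 (edgeR adjusted p = 0.0494). That call held in 3 of the 18 fits without 1 library and 2 of the 5 without 1 line. OPT1, an oligopeptide transporter, stood at 19.1, 19.6 and 38.1 CPM in Hh77, against 23.9 to 283 CPM (median 88.4) in euploid colonies. SAM3, the S-adenosylmethionine permease, stood at 80.9, 79.1 and 127 CPM in Hh77, against 112 to 542 CPM (median 290.3) in euploid colonies. In both the euploid colonies within the Hh77 range included Hh1 colony 2. MTO1 and IFM1, both of mitochondrial translation, had log2 fold changes of -1.69 ± 0.42 and -1.56 ± 0.46 over the euploid lines and of 0.22 and 0.23 over the ancestor. HPF1, YMR084W and YPL247C completed the 10, with log2 fold changes of -1.62, -1.57 and -1.47.

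The 14 genes called in every fit were picked out after their values were seen. Over the ancestor each kept its direction and none was called. The log2 fold changes there ran from 0.16 (YOL164W-A) to 1.15 (RTA1) for the higher genes. For the lower genes they ran from -0.81 (BSC5) to -0.25 (SLM3). PHO89, a sodium-phosphate cotransporter, stood at 19.1, 19.2 and 25.7 CPM in the Hh77 colonies, against 3.18 (lowest), 5.98 (median) and 11.4 CPM (highest) in the euploid colonies. The groups did not overlap, and the log2 fold change was 1.85 ± 0.23 (edgeR adjusted p = 0.000461). For PHO89 it was 0.55 over the ancestor (edgeR adjusted p = 0.291) and 0.61 over the other aneuploid lines (edgeR adjusted p = 0.529). DOG1, a 2-deoxyglucose-6-phosphate phosphatase with a near-identical copy, stood at 95.4, 122 and 99.3 CPM in Hh77, against 38.5 to 78.1 CPM (median 57.8) in euploid colonies, without overlap and with a log2 fold change of 0.90 ± 0.16 (edgeR adjusted p = 0.00294). RTA1, a membrane protein of sterol-analogue resistance, stood at 28.0, 26.1 and 28.0 CPM in Hh77, against 12.1 to 19 CPM (median 16.4) in euploid colonies, without overlap and with a log2 fold change of 0.78 ± 0.13 (edgeR adjusted p = 0.00225). BUD27, an unconventional prefoldin, was lower without overlap, at 16, 12.9 and 17.2 CPM in Hh77, against 22.1 to 35.5 CPM (median 28.0) in euploid colonies, a log2 fold change of -0.88 ± 0.16 (edgeR adjusted p = 0.00318). Spore genes were among the 14 at low levels. SPS22 stood at 4.24, 6.57 and 5.61 CPM in Hh77, against 1.21 to 3.65 CPM (median 1.95) in euploid colonies, without overlap. SSP1 stood at 9.20, 10.8 and 6.16 CPM in Hh77, against 1.70 to 7.19 CPM (median 2.51) in euploid colonies, and MPC54 at 10.9, 6.02 and 10.0 CPM in Hh77, against 0.797 to 8.92 CPM (median 1.73) in euploid colonies, both with overlap. MNT4, a mannosyltransferase gene, stood at 101, 121 and 84.3 CPM in Hh77, against 33.5 to 89.7 CPM (median 45.7) in euploid colonies, with overlap. SLM3, of mitochondrial tRNA modification, was lower, at 19.2, 19.3 and 23.9 CPM in Hh77, against 21.0 to 73.8 CPM (median 44.5) in euploid colonies, with overlap. YGR153W, YBR184W and YOR385W, all uncharacterised, rose and BSC5 fell, with log2 fold changes of 1.55, 1.11, 1.01 and -1.01. YOL164W-A had 0 reads in the 3 colonies of Hh9, so no fold change is given. It stood at 6.72, 6.84 and 5.15 CPM in Hh77, against 0 to 7.08 CPM (median 2.67) in euploid colonies.

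**Figure D5:**
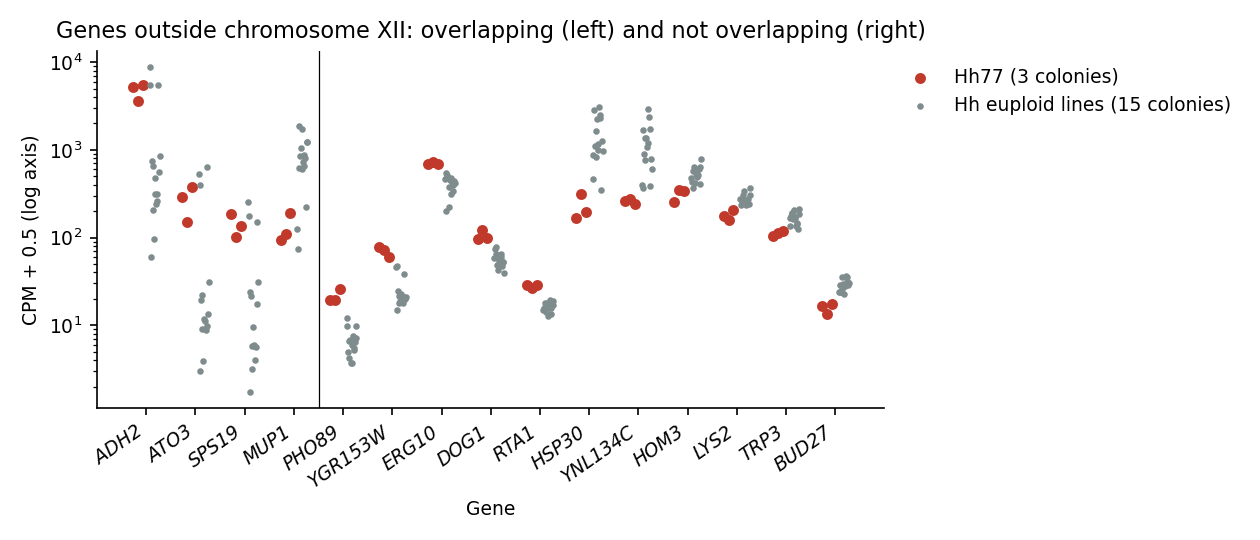
Counts scaled by library size (CPM), plotted as CPM + 0.5 on a log axis, of 4 genes outside chromosome XII whose groups overlap (left of the line) and 11 whose groups do not (right), 1 point per colony, Hh77 (red) left of the euploid lines (grey). ADH2, ATO3 and SPS19 each have 3 euploid colonies at or above the lowest Hh77 colony and 12 below it.

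By gene list, ribosomal proteins outside chromosome XII gave more calls than any other list. Of 117 measured, 50 rose and 0 fell, where 5.52% of all genes outside the chromosome rose. The median log2 fold change was 0.98, against 0.02 over all those genes, and 117 of 117 were positive. No gene of the list was called in all 23 fits. The count was 0 without Hh77 colony 2, with 35 at an unadjusted p under 0.05 by edgeR, and 2 without Hh77 colony 1. It was 97 without Hh1 colony 2, 90 without Hh1 colony 3 and 83 without Hh9 colony 1. It was 14 to 30 without any 1 colony of Hh2, colonies 1 and 3 of Hh3, colony 1 of Hh5, colonies 2 and 3 of Hh9, or Hh77 colony 3. Without a whole line it was 106 (Hh1), 3 (Hh2), 9 (Hh3) or 2 (Hh5). RPP1A, an acidic stalk protein, stood at 589.7, 896 and 609 CPM in Hh77, against 158 to 619 CPM (median 331) in euploid colonies, with Hh1 colony 2 in the Hh77 range and a log2 fold change of 1.04 ± 0.23 (edgeR adjusted p = 0.0108). RPL34A, of the large subunit, stood at 246, 365 and 233 CPM in Hh77, against 59.5 to 249 CPM (median 128) in euploid colonies, likewise. Averaged over the list, the Hh77 colonies stood at 0.67 to 1.36 on the log2 scale from the euploid mean, and the euploid colonies at -1.20 to 0.89. Against the ancestor the median was 0.59 and 115 of 117 were positive, with 0 called by edgeR and 58 at an unadjusted p under 0.05. That fit also called 0 chromosome XII genes, though the median log2 ratio of the chromosome was 0.57 there. Its 0 calls therefore do not show an absence of change. Ribosome assembly genes outside the chromosome gave 1 of 103 higher, below the 5.52% of all genes there: FCF1, with a log2 fold change of 0.59 ± 0.16 (edgeR adjusted p = 0.0286), and a median of 0.29.

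Mitochondrial ribosomal protein genes gave 5 of 69 lower and 0 higher, where 3.11% of all genes outside the chromosome fell, with a median log2 fold change of -0.63. MRPL3 stood at 58.4, 43.4 and 72.4 CPM in Hh77, against 38.8 to 235 CPM (median 155) in euploid colonies, so that colonies 1 and 2 of Hh1 and colony 1 of Hh9 stood at or below the highest Hh77 colony. The log2 fold change was -1.20 ± 0.36 (edgeR adjusted p = 0.0445). List averages lay between -0.66 and -0.56 in Hh77, between -1.33 and 0.71 in the euploid colonies and between -1.06 and -0.99 in the ancestor. Peroxisomal fatty acid genes gave 4 of 25 higher and 0 lower, where 5.52% of all genes outside the chromosome rose, with a median of 0.80. DCI1, a peroxisomal isomerase-like protein, stood at 239, 73.3 and 264 CPM in Hh77, against 21.3 to 410.1 CPM (median 46.5) in euploid colonies. The list averaged 0.34 to 1.09 in Hh77, -1.16 to 1.36 in the euploid colonies and 1.06 to 1.36 in the ancestor. Genes of glucose-repressed carbon metabolism gave 4 of 30 higher, read against the same 5.52%, and 0 lower. CYB2, lactate dehydrogenase, stood at 4339, 2306 and 3814 CPM in Hh77, against 928 to 3877 CPM (median 1667) in euploid colonies. That list averaged 0.14 to 0.67 in Hh77, -1.12 to 0.94 in the euploid colonies and 0.74 to 1.04 in the ancestor.

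Amino acid synthesis genes under Gcn4, the activator of the response to amino acid starvation, gave 6 of 55 lower and 0 higher, where 3.11% of all genes outside the chromosome fell. Over the list the median log2 fold change was -0.04, and 23 of 55 were positive. In 5 of the 55 the groups did not overlap. Over all genes outside the chromosome 1.06% lay wholly above the euploid colonies and 0.713% wholly below. The 4 with the smallest p, picked from these same data, were among the 5. HOM3, aspartate kinase, stood at 253, 344 and 335 CPM in Hh77, against 371 to 782 CPM (median 532) in euploid colonies, a log2 fold change of -0.78 ± 0.19 (edgeR adjusted p = 0.0192). ARG3, ornithine carbamoyltransferase, stood at 62.9, 99.1 and 87.9 CPM in Hh77, against 101 to 183 CPM (median 134) in euploid colonies, a log2 fold change of -0.74 ± 0.18 (edgeR adjusted p = 0.0181). LYS2, aminoadipate reductase, stood at 174, 158 and 207 CPM in Hh77, against 233 to 370.1 CPM (median 268) in euploid colonies, a log2 fold change of -0.60 ± 0.15 (edgeR adjusted p = 0.0224). TRP3, of tryptophan synthesis, stood at 104, 112 and 119 CPM in Hh77, against 124 to 210.2 CPM (median 165) in euploid colonies, a log2 fold change of -0.57 ± 0.15 (edgeR adjusted p = 0.0274). The list's averages spanned 0, at -0.23 to 0.05 in Hh77 and -0.46 to 0.36 in the euploid colonies. Iron and copper genes gave 1 of 27 higher and 3 lower, beside 5.52% higher and 3.11% lower over all genes outside the chromosome. FIT2, a wall mannoprotein that holds siderophore iron, stood at 11.1, 47.9 and 16.4 CPM in Hh77, against 6.18 to 20.3 CPM (median 10.4) in euploid colonies, a log2 fold change of 1.15 ± 0.35 (edgeR adjusted p = 0.0454). FIT1, its relative, stood at 10.9, 12.5 and 25.9 CPM in Hh77, against 13.3 to 70.1 CPM (median 35.9) in euploid colonies, a log2 fold change of -0.97 ± 0.30 (edgeR adjusted p = 0.0454). Both overlapped the euploid colonies.

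Promoters of LYS2 and TRP3, which both fell, and of FIT1 and FIT2, which moved in opposite directions, are shown from 250 bases before to 50 bases from the start codon, 5′ to 3′ on the coding strand. They were read from RefSeq's R64 assembly of the reference strain and not from these lines. They are chrII:473877-474176 (minus strand) for LYS2, chrXI:38104-38403 (minus) for TRP3, chrIV:1504851-1505150 (minus) for FIT1 and chrXV:1059281-1059580 (plus) for FIT2. Capitals mark TGACTC, the Gcn4 half-site, in LYS2 and TRP3 and GCACCC, the Aft1 core, in FIT1 and FIT2, on either strand.
LYS2: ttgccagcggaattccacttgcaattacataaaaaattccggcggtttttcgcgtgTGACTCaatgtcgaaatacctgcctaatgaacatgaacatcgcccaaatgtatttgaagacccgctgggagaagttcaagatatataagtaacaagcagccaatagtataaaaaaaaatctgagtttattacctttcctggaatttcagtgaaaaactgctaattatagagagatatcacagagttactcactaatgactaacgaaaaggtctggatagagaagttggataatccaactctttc
TRP3: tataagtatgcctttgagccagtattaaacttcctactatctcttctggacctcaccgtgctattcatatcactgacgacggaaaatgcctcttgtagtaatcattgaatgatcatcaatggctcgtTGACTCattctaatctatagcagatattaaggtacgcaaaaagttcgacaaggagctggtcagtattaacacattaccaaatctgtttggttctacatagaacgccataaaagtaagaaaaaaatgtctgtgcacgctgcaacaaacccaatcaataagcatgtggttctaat
FIT1: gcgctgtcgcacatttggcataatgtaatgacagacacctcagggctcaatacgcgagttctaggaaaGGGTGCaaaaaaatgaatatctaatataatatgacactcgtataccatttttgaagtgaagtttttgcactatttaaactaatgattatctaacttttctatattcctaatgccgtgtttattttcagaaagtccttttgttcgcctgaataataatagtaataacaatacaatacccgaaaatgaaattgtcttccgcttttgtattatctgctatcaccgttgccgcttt
FIT2: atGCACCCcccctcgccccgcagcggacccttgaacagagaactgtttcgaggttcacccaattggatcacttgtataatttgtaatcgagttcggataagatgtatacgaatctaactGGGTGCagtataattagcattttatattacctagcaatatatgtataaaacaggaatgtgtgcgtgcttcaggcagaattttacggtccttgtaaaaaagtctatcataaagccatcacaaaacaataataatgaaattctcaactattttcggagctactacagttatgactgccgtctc
TGACTC, searched on both strands, was in 29 of the 55 measured genes of the Gcn4 list and in 3 of the 6 called, ILV6 being the other one. Of 6007 promoters of this length 7.97% held it. GCACCC was in 13 of the 27 iron and copper genes and in 3 of the 4 called, FRE5 being the other one. Of all promoters 4.26% held it. A match is a run of letters, not evidence of binding.

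Sulfur genes outside the chromosome gave 4 of 31 lower and 0 higher, where 3.11% of all genes there fell, with a median log2 fold change of -0.58. STR3, a cystathionine beta-lyase, stood at 49.4, 63.5 and 57.1 CPM in Hh77, against 60.0 to 112 CPM (median 89.2) in euploid colonies, a log2 fold change of -0.64 ± 0.14 (edgeR adjusted p = 0.00915). MET8, of sirohaem synthesis, stood at 1.34, 1.23 and 2.30 CPM in Hh77, against 1.61 to 6.72 CPM (median 4.68) in euploid colonies. Both overlapped. The list averaged -0.92 to -0.54 in Hh77, -0.76 to 0.84 in the euploid colonies and -0.83 to -0.49 in the ancestor. Purine and one-carbon genes gave 4 of 18 higher and 0 lower, where 5.52% of all genes outside the chromosome rose. ADE1 stood at 361, 297 and 197 CPM in Hh77, against 68.0 to 321 CPM (median 105) in euploid colonies, with 2 euploid colonies in the Hh77 range. ADE17, a bifunctional enzyme of the last purine steps, stood at 449, 165 and 209 CPM in Hh77, against 25.1 to 376 CPM (median 87.8) in euploid colonies, likewise. In sterol synthesis 3 of 22 rose, against the same 5.52%, and 0 fell. ERG10, acetoacetyl-CoA thiolase, stood at 684, 726 and 686 CPM in Hh77, against 200.3 to 537 CPM (median 425) in euploid colonies, without overlap and with a log2 fold change of 0.80 ± 0.24 (edgeR adjusted p = 0.0426). ERG6, a sterol methyltransferase, stood at 606, 412 and 508 CPM in Hh77, against 60.4 to 609 CPM (median 147) in euploid colonies, with overlap and a log2 fold change of 1.63 ± 0.38 (edgeR adjusted p = 0.0166). Meiosis and sporulation genes gave 6 of 23 higher, against 5.52%, and 0 lower, at low levels. DIT1, of spore wall synthesis, stood at 8.27, 10.7 and 7.72 CPM in Hh77, against 3.63 to 7.73 CPM (median 4.51) in euploid colonies.

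Among protein quality control genes, 2 of 25 in the heat shock list fell, where 3.11% of all genes outside the chromosome did, and 0 rose. The 2 were HSP30 and SSE2. The list had a median log2 fold change of -0.56, and 5 of 25 were positive. It averaged -1.06 to -0.15 in Hh77, -0.83 to 0.64 in the euploid colonies and -0.36 to 0.16 in the ancestor. SSE2, an Hsp110 chaperone, stood at 55.9, 62.9 and 73.0 CPM in Hh77, against 65.4 to 149 CPM (median 92.8) in euploid colonies, with 2 euploid colonies in the Hh77 range. Of 36 proteasome genes 2 rose, near the 5.52% of all genes outside the chromosome, and 0 fell, PRE6 with a log2 fold change of 0.70 ± 0.21 (edgeR adjusted p = 0.0452) and SEM1 with 0.78 ± 0.24 (edgeR adjusted p = 0.0488). In the unfolded protein response list 1 of 21 rose, again near 5.52%, MPD2, a disulfide isomerase, with a log2 fold change of 0.98 ± 0.24 (edgeR adjusted p = 0.0182). General stress and storage genes averaged -0.15 to 0.16 in Hh77, against -0.45 to 0.75 in the euploid colonies and 0.43 to 0.68 in the ancestor.

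With the line as the replicate, 1 sum of counts for Hh77 against 5 for the euploid lines, edgeR called 0 of 499 chromosome XII genes (0.00%) and 0 of the others, with a lowest adjusted p of 0.0928. At an unadjusted p under 0.05 stood 248 of 499 chromosome XII genes (49.7%) and 899 of 5468 others (16.4%). DESeq2 on the same sums called 121 higher and 5 lower on chromosome XII, and 94 higher and 179 lower elsewhere. It was scaled on all genes, chromosome XII included, so tool and scaling changed together.

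Against the other 9 aneuploid Hh lines, leaving out for each gene the lines labelled as altered for its chromosome, 26 of 5501 genes outside chromosome XII rose (0.473%) and 5 fell (0.0909%). Those lines are labelled Trisomy I (Hh7 and Hh18), Trisomy V (Hh4 and Hh49), Trisomy VII (Hh59 and Hh61), Tetrasomy XVI (Hh8), Monosomy I with Trisomy XV (Hh11), and Trisomy IX and XIV with a partial X (Hh76). Of 5466 genes tested in both comparisons 10 (0.183%) rose and 2 (0.0366%) fell in both. FUN19 and ATG32, the mitophagy receptor, were the 2 that fell. FUN19 stood at 115, 117 and 135 CPM in the Hh77 colonies, against 158 (lowest), 265 (median) and 344 CPM (highest) in the euploid colonies, without overlap. Its log2 fold change against the aneuploid lines was -1.14 ± 0.23 (edgeR adjusted p = 0.0178). DOG1 gave 0.91 ± 0.17 (edgeR adjusted p = 0.0105) against those lines, and RPP2B, a stalk protein, 1.01 ± 0.24 (edgeR adjusted p = 0.0422). YBR184W, BSC1, YFR057W, HAM1, TRS33, RPB8, PIS1 and LOA1 were the other 8 that rose. The 31 calls of this comparison became 6 without Hh77 colony 1, 19 without Hh77 colony 3 and 0 without Hh77 colony 2, where 297 stood at an unadjusted p under 0.05 by edgeR. They became 195 (121 higher and 74 lower) without libraries held in doubt, Hh18, colony 1 of Hh11 and colony 1 of Hh59, and 103 with DESeq2. Hh18 and colony 1 of Hh11 had a raised chromosome XII, described next, and colony 1 of Hh59 did not (median log2 ratio 0.01). These libraries were left out together, so the share of each in the change was not tested.

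Line Hh18, labelled Trisomy I, expressed chromosome XII at a similar level. Its chromosome XII median was 0.56 ± 0.03, where Hh77 in the same scaling had 0.54 ± 0.07 (SD, n = 3 each). Colony 1 of Hh11 had 0.56. Between Hh77 and Hh18 edgeR called 0 of 502 chromosome XII genes (8 at an unadjusted p under 0.05) and 0 of 5501 others (162). In that scaling PUN1 averaged 1142 ± 526 CPM in Hh77 and 581 ± 230 CPM in Hh18 (SD, n = 3 each), and 149.8 CPM in the euploid lines. VPS36 averaged 179 ± 47.7 CPM in Hh77 and 122 ± 29.5 CPM in Hh18, and 65.3 CPM in the euploid lines. SPC3 averaged 152 ± 15.3 CPM in Hh77 and 133 ± 38.2 CPM in Hh18, and 55.8 CPM in the euploid lines. AHP1 averaged 78.5 ± 29.0 CPM in Hh77 and 104 ± 58.4 CPM in Hh18, and 328 CPM in the euploid lines. Over genes of chromosomes that no Hh label names as altered, 211 of 2550 genes (8.27%) were called in Hh77 against the euploid lines. The same test called 92 in Hh18 and 14 to 743 in the other 8 aneuploid lines, so Hh77 lay inside their range.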

How the data were processed

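The authors counted reads per gene with HTSeq 0.6.1pl and deposited raw counts, and the submitters' processing notes also name TopHat2 2.1.1, Trim Galore 0.4.4, SAMtools 1.3.1 and the sacCer3 genome. The authors' FPKM table, deposited with them and tied by those notes to Cufflinks and Cuffnorm 2.2.1, was used only for an alternative value of the chromosome XII median. Libraries were stranded single-end, 75 bases, per the labels. The labels call the 3 colonies of a line biological replicates.

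Counts went into edgeR 4.0.16 (R 4.3.3) as deposited, without the rows that name no gene. A quasi-likelihood fit held the 18 libraries in 6 line groups, with TMM factors from genes outside chromosome XII and edgeR's filter on low counts, and contrasted Hh77 with the mean of the 5 euploid lines. Fold changes in the text are log2 with the SE of this fit. P-values were adjusted over all 6056 genes tested, of which 89 features had no chromosome in their name. The test against 3:2 put log2(3/2) in as an offset and was adjusted over 499 genes. CPM in the text uses the same factors. Ratios on the log scale used a pseudocount of 0.5 CPM. The comparison with the aneuploid lines and Hh18 used 1 fit of 45 libraries. The fit was also run on simulated counts, drawn with the same spread for every gene and library. That run held no colonies or lines that stand apart, so it cannot show how the calls depend on them.

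Named genes were, outside chromosome XII, the 10 called with the largest change each way among those averaging at least 10 CPM. On chromosome XII they were the 8 with the smallest p on each side of 3:2, and in each list up to 4 called members with the smallest p, with any regulator or enzyme of the chromosome given by value. The genes called in every fit, and other genes of the chromosome given for a role, were chosen after their values were seen. The members and lists were chosen with earlier results of these data known. The comparison with Hh18, the paralogue pairs, the counts per aneuploid line and the ribosomal protein counts under each alternative were added after seeing the data. Alternatives were other scalings, filters and tools (DESeq2 1.42.0, limma-voom 3.58.1), the Hh ancestor in place of the euploid lines, a replicate block, leaving out libraries whose files are named as redone, and leaving out each library or line. DESeq2 was scaled on all genes, chromosome XII included, so its counts differ by tool and scaling together. Reads were 4675391 or more per library, which limits genes of a few reads.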

Additional observations from a re-analysis of the deposited data

Results flagged for a closer look

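Among 51 values examined for a euploid line far from the other 4, 3 were found, where chance gives about 1 in 20. MUP1 averaged 6.98 in Hh77 on the log2(CPM + 0.5) scale, and among the euploid lines it averaged 8.03 in Hh1, where the others lay between 9.43 and 9.83. YOL164W-A averaged 2.74 in Hh77 and -1.0 in Hh9, the value of 0 reads on this scale, where the highest of the other euploid lines had 2.09. YBR184W averaged 3.34 in Hh77 and 1.83 in Hh5, where the other euploid lines lay between 2.39 and 2.50.

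Chromosome XII was raised in libraries whose labels do not name it. The median log2 ratio was 0.56 in Hh18, labelled Trisomy I, and 0.56 in colony 1 of Hh11, labelled Monosomy I and Trisomy XV, where the lowest of the 3 colonies of Hh11 had -0.07.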

How the results depend on the processing

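The median log2 ratio of chromosome XII (0.56) was 0.43 with scaling by total counts, where genes outside the chromosome stood at -0.13. It was 0.49 with a pseudocount of 5 CPM and 0.57 from the FPKM values of the authors. The difference between the chromosome and the rest was 0.56 in each of 3 scalings. A scaling shifts all genes of a library alike, so this difference could hardly change and is no check on the scaling. The 247 calls on chromosome XII were 120 to 268 without 1 library and 152 to 284 without 1 line, and 0 against the Hh ancestor (281 unadjusted, edgeR). Against the ancestor the chromosome XII median was 0.57 and 482 of 497 fold changes were positive, so the 0 calls do not mean that the rise was absent there. The 472 calls elsewhere were 957 with DESeq2, 235 without libraries named as redone, 1 against the ancestor (712 unadjusted), 34 to 1092 without 1 library and 46 to 1550 without 1 line. The 51 calls against 3:2 were 28 with scaling on all genes, 112 with DESeq2, 33 with limma-voom, 29 without redone libraries, 0 against the ancestor (70 unadjusted), 1 to 119 without 1 library and 3 to 165 without 1 line. The 50 ribosomal protein calls were 25, 80, 7, 27 and 0 under the same 5 settings (58 unadjusted against the ancestor), 0 to 97 without 1 library and 2 to 106 without 1 line. With the line as replicate DESeq2 called 400 genes where edgeR called 0. The 31 calls against the aneuploid lines were 195 without Hh18, colony 1 of Hh11 and colony 1 of Hh59, 103 with DESeq2, 56 with a replicate block and 0 to 19 without 1 Hh77 colony. Of 36 named genes 7 changed sign against the ancestor: ATO3 -0.80, SPS19 -0.70, IME1 -0.81, ADH2 -0.83, ARO9 -0.35, MTO1 0.22 and IFM1 0.23 (log2, edgeR adjusted p from 0.147 to 0.707), and the other 29 kept the sign of the value tested without passing the threshold. For the 16 chromosome XII genes among them that value is the distance from 3:2, and their fold changes over the ancestor could still differ in sign from those over the euploid lines, as for MAS1, AAT2, IFH1, MRPL4, TPO1, GIS3 and ECM22. The cause of these changes was not tested.

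Deviations from the line means correlated at -0.519 to 0.615 between colonies of different lines that share a number (median 0.050 over 45 pairs). Between colonies with different numbers they correlated at -0.735 to 0.706 (median -0.037 over 90 pairs). The ranges overlap widely, so they cannot settle whether the numbers pair colonies. A replicate block gave 249 calls on chromosome XII, 619 elsewhere, 69 against 3:2 and 54 ribosomal protein genes.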
